A study of Mus musculus with 16 samples.

Results

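The 49 genes described here encode the machinery of mitosis, from the kinases that start it to the proteins that cut the cell apart at its end. They were taken by symbol from the deposited count table, which held 24394 genes with usable names. All 49 were found, 48 under their own symbol and the kinetochore gene Knl1 under its older symbol Casc5. RNA came from CD8+ T cells, the T cells that kill other cells, sorted by flow cytometry from mouse bone marrow. Every group had bone marrow failure (BMF), and the BAR groups were also given baricitinib, which inhibits the cytokine-signalling kinases JAK1 and JAK2. The groups were BAR at day 14 (3 libraries), BMF at day 14 (3 libraries), BAR at day 10 (5 libraries) and BMF at day 10 (5 libraries), with days counted from the start of the marrow failure. The sources used here do not give how the failure was induced, or the strain, age, sex and drug dose, and healthy mice were not analysed here. The series' design text speaks of pooled cells and nothing ties a library to one animal, so the p-values below cover the spread between libraries, part of which may be technical.

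In a dividing cell, rising kinase activity condenses the chromosomes and builds the spindle, kinetochores on each chromosome hold the spindle's fibres, and a checkpoint holds back the cut of the sister chromatids until every kinetochore is attached. The anaphase-promoting complex then marks securin for destruction, separase cuts the rings that join the sisters, and the spindle midzone and a contractile ring split the cell. Many genes of this machinery are switched on together late in the cell cycle, through FoxM1 and a group of factors that bind the CCAAT box and the cell cycle genes homology region (CHR). T cells that meet antigen divide fast, and these genes mark dividing cells of any type in a library.

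Libraries held 26134894 to 58823116 counts. Levels are CPM, each library's counts scaled to a common total. Cd8a, which encodes a chain of the CD8 co-receptor, stood at 569.8 to 941 CPM, Cd8b1 at 706 to 1381 CPM and Cd3e, a chain of the T cell receptor complex, at 738 to 1688 CPM in the 16 libraries, while the helper T cell marker Cd4 stood at 0.519 to 5.92 CPM. Transcripts of other marrow cells were also present, most of all those of a list of 19 neutrophil-lineage genes with granule genes such as Mpo, Elane and Ngp. All 19 were detected in each library, and their summed level was 40446 to 53025 CPM in BAR day 14, 2889 to 23222 CPM in BMF day 14, 4815 to 13895 CPM in BAR day 10 and 2681 to 10079 CPM in BMF day 10 libraries. At day 14, 15 monocyte and macrophage genes summed to 3547 to 4373 CPM in BAR and 521 to 1619 CPM in BMF libraries, and 8 mast cell, basophil and eosinophil genes to 314 to 665 CPM in BAR and 1.93 to 38.5 CPM in BMF libraries. Sums of 13 dendritic cell genes (715 to 859 CPM in BAR, 382 to 441 CPM in BMF) and 14 B and plasma cell genes (32.1 to 48.7 CPM in BAR, 15.3 to 17.4 CPM in BMF) were also apart at day 14. Those of 7 natural killer cell genes, 5 of them detected in each library, were apart in the other direction (166 to 182 CPM in BAR, 216 to 262 CPM in BMF). So were sums of 11 stem and progenitor cell genes (403 to 495 CPM in BAR, 507 to 640 CPM in BMF). The mean log2 CPM of these 11 was higher in BAR (2.65) than in BMF (0.574), against the direction of their sums. That of the 7 natural killer cell genes was 0.0609 in BAR and 0.545 in BMF. With means this low beside the sums, few genes of either list carried its sum. These 2 sums therefore do not give the amount of RNA from such cells. Of 13 erythroid genes, 9 were detected in each BAR day 14 library and 7 to 9 in each BMF day 14 library, with sums of 367 to 711 CPM in BAR and 14.4 to 42.9 CPM in BMF, and the globin genes Hba-a1, Hba-a2, Hbb-bs and Hbb-bt were listed at 0 in every library. The ribosomal RNA gene Rn45s took 5.53%, 4.83%, 5.81%, 2.73% and 1.15% of the counts in the 5 BMF day 10 libraries, against 1.22% to 1.43% in the BAR day 10 libraries.

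The promoters of 5 of the genes that were lower at day 14 are shown because these genes head their groups below and share both motifs named above. They come from RefSeq (GRCm38.p6) and run from 250 bases before to 50 bases after the annotated start, written 5′ to 3′ on the gene's own strand. Capitals mark the CCAAT box, which reads ATTGG where it lies on the other strand, and the CHR letters TTTGAA. Kif4 lies on the plus strand (promoter chrX:100625815-100626114), Racgap1 on the minus strand (chr15:99651607-99651906), Espl1 on the plus strand (chr15:102296043-102296342), Ncapd2 on the minus strand (chr6:125191537-125191836) and Cenpf on the minus strand (chr1:189688037-189688336).
Kif4: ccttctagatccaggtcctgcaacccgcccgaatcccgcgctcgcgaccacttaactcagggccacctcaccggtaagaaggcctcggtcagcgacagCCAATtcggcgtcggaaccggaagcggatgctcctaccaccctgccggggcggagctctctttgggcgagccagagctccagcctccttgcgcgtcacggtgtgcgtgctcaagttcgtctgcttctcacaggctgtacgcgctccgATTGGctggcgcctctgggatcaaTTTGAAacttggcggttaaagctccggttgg
Racgap1: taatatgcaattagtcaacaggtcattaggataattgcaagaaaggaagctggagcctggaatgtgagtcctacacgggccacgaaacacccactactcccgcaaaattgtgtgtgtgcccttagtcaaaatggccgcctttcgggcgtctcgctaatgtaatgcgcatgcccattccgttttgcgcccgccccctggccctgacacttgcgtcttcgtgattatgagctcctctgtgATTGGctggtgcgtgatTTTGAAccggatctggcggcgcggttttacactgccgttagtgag
Espl1: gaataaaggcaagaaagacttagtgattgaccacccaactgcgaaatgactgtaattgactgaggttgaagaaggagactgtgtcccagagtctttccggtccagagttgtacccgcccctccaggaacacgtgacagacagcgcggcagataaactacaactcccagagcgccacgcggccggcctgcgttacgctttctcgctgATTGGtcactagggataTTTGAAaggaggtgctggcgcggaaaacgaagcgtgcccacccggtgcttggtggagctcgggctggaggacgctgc
Ncapd2: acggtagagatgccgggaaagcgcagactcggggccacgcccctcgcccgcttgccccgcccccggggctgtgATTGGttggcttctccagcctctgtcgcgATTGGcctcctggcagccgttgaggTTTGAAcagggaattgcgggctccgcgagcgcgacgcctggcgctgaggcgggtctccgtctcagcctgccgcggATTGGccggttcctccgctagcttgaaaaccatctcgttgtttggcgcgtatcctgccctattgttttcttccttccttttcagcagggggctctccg
Cenpf: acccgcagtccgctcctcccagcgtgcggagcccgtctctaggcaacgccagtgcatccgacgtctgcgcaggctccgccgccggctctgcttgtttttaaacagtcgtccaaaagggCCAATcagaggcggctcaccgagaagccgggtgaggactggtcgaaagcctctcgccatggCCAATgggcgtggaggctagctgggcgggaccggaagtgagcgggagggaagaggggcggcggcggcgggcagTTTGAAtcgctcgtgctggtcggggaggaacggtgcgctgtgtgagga

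RefSeq promoters were matched for 41 of the 49 members, 44 promoters in all, since some genes have more than 1 annotated start. A CCAAT box on either strand (CCAAT or ATTGG) stood in 33 of the 44 (75%), against 37.4% of all 32851 promoters of the same length. The CHR letters TTTGAA, read on both strands, stood in 36 (81.8%), against 17.9% of all promoters, and the form TTCGAA in 4 (9.09%), against 1.56%. Both a CCAAT box and a CHR form stood in 32 (72.7%), against 7.52% of all promoters, and 2 or more CCAAT boxes in 21 (47.7%), against 11.7%. The promoters of Birc5, Mad2l1, Ncaph, Nuf2 and Pttg1 held neither motif in this window. These are matches of letters, not measured binding.

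Over all 16 libraries, the highest levels per kilobase of exon were those of the securin gene Pttg1 (89.6 CPM per kb), the condensin core gene Smc4 (87.1), the survivin gene Birc5 (70.8) and Cdc20 (66.3), which activates the anaphase-promoting complex. The lowest were those of the midbody kinesin gene Kif14 (2.35 CPM per kb), the ring scaffold gene Anln (3.04) and the separase gene Espl1 (4.72). The order of the highest differed between groups. Smc4 (60.4 CPM per kb in BAR day 14, 67.5 in BMF day 14, 91.6 in BAR day 10 and 110.3 in BMF day 10) lay below Pttg1 (97.3, 90.9, 96.3 and 77.3 in the same groups) in all but BMF day 10.

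At day 14, whether baricitinib changed the mitotic programme was asked by setting 3 BAR against 3 BMF libraries. Summed over the 49 genes, the level was 4979, 4867 and 4964 CPM in BAR libraries, against 5920, 6557 and 5903 CPM in BMF libraries. The groups did not overlap. Of the 49 genes, 26 were lower in BAR by edgeR's quasi-likelihood test at an adjusted p under 0.05, where 12.2% of all 14862 genes tested were lower. None was higher, where 12.9% of all genes were: edgeR had 0 members higher at an unadjusted p under 0.05, DESeq2 called 0 higher and had 1 unadjusted, and limma voom had 0 of either. The median log2 fold change of the 49 was -0.35, against -0.01 for all genes, and 46 of the 49 were negative. In 35 genes every BAR library lay below every BMF library (21.5% of all genes), and in 2 every BAR library lay above (21.8% of all genes). In bulk RNA, fewer dividing T cells, less of each transcript per cell and a different share of other dividing cells cannot be told apart.

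This day 14 difference depended on what the counts were scaled to. The values above use TMM, which scales on all genes. The summed level of 9 CD8 T cell identity genes (Cd8a, Cd8b1, Cd3e, Cd3d, Cd3g, Cd2, Cd5, Lck and Zap70) was 6831, 6849 and 7427 CPM in BAR day 14 libraries, against 10086, 9566 and 8480 CPM in BMF day 14 libraries, so that it too was lower in BAR in every library. Set over that sum, the mitosis sum was 0.729, 0.711 and 0.668 in BAR, against 0.587, 0.685 and 0.696 in BMF, and the groups overlapped. The mitosis sum takes in RNA of any dividing cell in a library, so this ratio does not give the division of T cells alone. Nor did the T cell genes move alike between days. In BAR the mean of Cd3e was 934 CPM at day 10 and 1241 CPM at day 14, and that of Cd2 was 709 and 574 CPM. Whether the list follows the amount of T cell RNA was not tested. When library sizes were scaled to the T cell list, an alternative chosen after the data were seen, 0 members were lower, where 1.27% of all genes were (2 at an unadjusted p under 0.05), and none of the 26 was called. Under it 7 members were higher (Aurka, Pbk, Bub3, Pttg1, Spc25, Cdca8 and Anln), where 38.5% of all genes were. That scaling moved the median of all genes to 0.38 and that of the members to 0.06, so that the members lay 0.32 below all genes on the log2 scale (a difference of -0.32). With the summed neutrophil-lineage level as a covariate, 5 members were lower, Espl1, Kif4, Kif18b, Ncapd2 and Racgap1. Within BMF day 14, the neutrophil-lineage sum was 2889, 16486 and 23222 CPM in the libraries whose mitosis sums were 5920, 6557 and 5903 CPM. The part of these other cells in the day 14 result was not tested further. The count of lower members was 12 without BMF day 14 replicate 2 and 14 without BAR day 14 replicate 2.

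**Figure D1:**
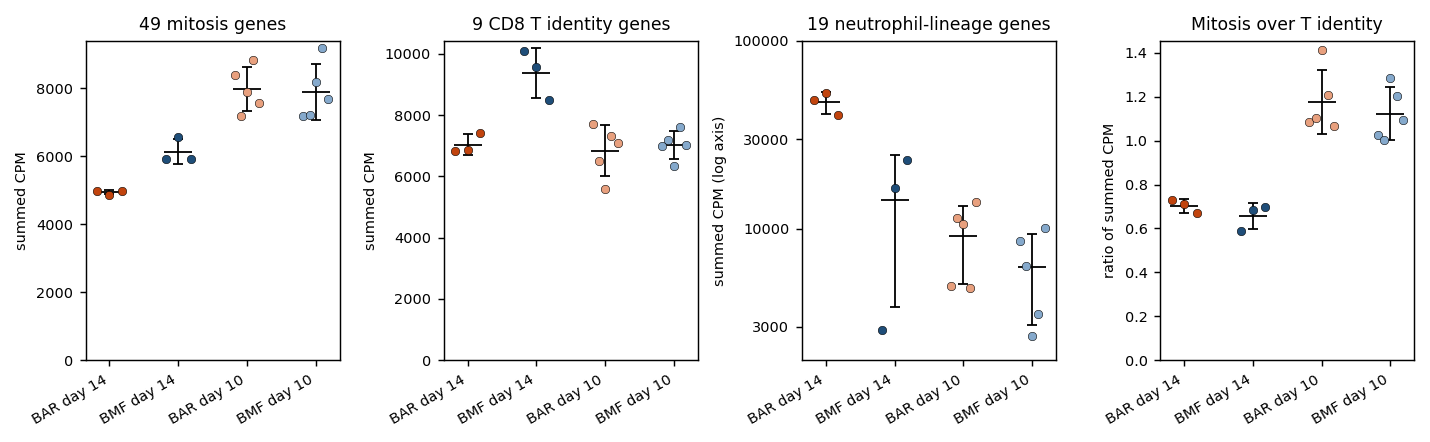
Summed CPM per library of the 49 mitosis genes, of 9 CD8 T cell identity genes and of 19 neutrophil-lineage genes (log axis), and the ratio of the mitosis sum to the T cell sum, in 4 groups; points are libraries, lines are means and bars are SD. At day 14 the mitosis sum is lower in BAR (4867 to 4979 CPM) than in BMF (5903 to 6557 CPM), whereas the ratio overlaps (0.668 to 0.729 in BAR, 0.587 to 0.696 in BMF).

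**Figure D2:**
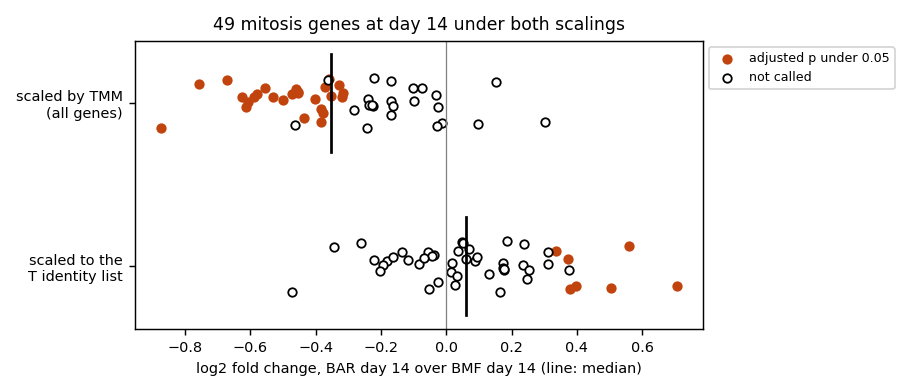
Log2 fold change of the 49 mitosis genes at day 14, BAR over BMF, with counts scaled on all genes by TMM (upper row) and to the CD8 T cell identity list (lower row); each point is a gene, filled where the adjusted p is under 0.05, and the vertical line is the median. The median is -0.35 under TMM with 26 genes lower, and 0.06 under the T cell scaling with 0 lower and 7 higher, where 38.5% of all genes are higher.

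The 3 general markers of dividing cells were all lower in BAR at day 14 under TMM, and none was called under the T cell scaling, where their median was -0.08. Under that scaling the median of all genes was 0.38, beside which this value and those of the groups below stand. Mki67, which encodes the Ki-67 coat of mitotic chromosomes, stood at 309.9, 235 and 268 CPM in BAR, against 363, 463 and 325 CPM in BMF (log2 fold change -0.50, SE 0.165, adjusted p = 0.0334). Top2a, the topoisomerase that untangles sister chromatids, stood at 382, 314 and 379 CPM in BAR, against 499, 557 and 416 CPM in BMF (log2 -0.45, SE 0.144, adjusted p = 0.0282). Foxm1, the transcription factor of the mitotic programme, stood at 26.9, 24.1 and 27.1 CPM in BAR, against 34.6, 45.7 and 37.2 CPM in BMF (log2 -0.59, SE 0.137, adjusted p = 0.00479). In each of the 3 genes all BAR libraries lay below all BMF libraries.

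None of the 5 mitotic kinases passed the test at day 14 under TMM. Their median was -0.03 under TMM and 0.37 under the T cell scaling, where the median of all genes was 0.38. Cdk1, the kinase that drives entry into mitosis, stood at 121, 108 and 115 CPM in BAR, against 121, 129.9 and 117 CPM in BMF (log2 -0.10, SE 0.129, adjusted p = 0.618). The polo kinase Plk1 averaged 115 ± 16.1 CPM in BAR and 117 ± 13.3 CPM in BMF, and Aurka, the spindle-pole Aurora kinase, 77.9 ± 3.11 CPM in BAR and 79.6 ± 6.18 CPM in BMF (n = 3 each, with SD). Aurkb, the Aurora kinase of the passenger complex, averaged 77.8 ± 6.23 CPM in BAR and 90.9 ± 3.66 CPM in BMF, with no overlap (log2 -0.23, adjusted p = 0.154). Pbk, a kinase active in mitosis, lay above BMF in every BAR library, with 60.5 ± 2.69 CPM in BAR and 54.5 ± 0.601 CPM in BMF (log2 0.15, adjusted p = 0.383).

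Of the 9 checkpoint and anaphase genes, Espl1, Bub1b and Bub1 fell and the other 6 did not pass the test; the group's median was -0.24 under TMM and 0.17 under the T cell scaling. Espl1 encodes separase, the protease that cuts the cohesin rings between sister chromatids. It stood at 31.2, 23.9 and 26.0 CPM in BAR, against 39.5, 56.0 and 53.0 CPM in BMF (log2 -0.87, SE 0.151, adjusted p = 0.000541). That is 0.546 of the BMF level, the lowest ratio among the 49. Bub1b, the checkpoint protein BubR1, stood at 95.6, 85.6 and 102 CPM in BAR, against 115, 123 and 131 CPM in BMF (log2 -0.38, SE 0.131, adjusted p = 0.0386), and its sign turned under the T cell scaling (0.02). Pttg1, securin, the inhibitor of separase, averaged 195 ± 35.6 CPM in BAR and 182 ± 4.90 CPM in BMF (log2 0.10, adjusted p = 0.564), the 1 positive value of its group. The checkpoint genes Bub3, Ttk and Mad2l1, and Cdc20 and Ube2c of the anaphase-promoting pathway, had log2 values between -0.46 and -0.07 that did not pass the test.

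Among the 9 kinetochore genes, Cenpf, Cenpe, Ndc80, Cenpa and Knl1 fell; the median was -0.33 under TMM and 0.07 under the T cell scaling. Cenpf, a large protein of the outer kinetochore, stood at 61.1, 44.7 and 53.7 CPM in BAR, against 88.3, 98.7 and 82.7 CPM in BMF (log2 -0.76, SE 0.149, adjusted p = 0.00154). Cenpe, the kinetochore kinesin that carries chromosomes to the spindle's middle, stood at 67.4, 56.8 and 59.0 CPM in BAR, against 92.4, 99.97 and 76.9 CPM in BMF (log2 -0.56, SE 0.144, adjusted p = 0.00962). The BAR libraries of both genes lay below all BMF libraries. The 4 subunits of the Ndc80 complex, which grips the spindle fibres, differed: Ndc80 fell (log2 -0.37, adjusted p = 0.0156), whereas Nuf2 (-0.24), Spc24 (-0.10) and Spc25 (-0.01) did not pass the test. Whether Ndc80 differed from its partners was not tested.

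In the kinesin group 8 of 11 genes were lower; the median was -0.40 under TMM and 0.02 under the T cell scaling, where none of the 11 was called (edgeR, the same fit). Kif4 (chrX:100625737-100727214), a chromosome-bound kinesin that shapes the midzone, stood at 44.99, 36.7 and 41.1 CPM in BAR, against 64.1, 70.3 and 61.3 CPM in BMF (log2 -0.67, SE 0.104, adjusted p = 0.000237). Kif23, the motor subunit of centralspindlin, a complex of the spindle midzone, stood at 41.5, 35.1 and 38.7 CPM in BAR, against 54.2, 61.7 and 50.8 CPM in BMF (log2 -0.53, SE 0.106, adjusted p = 0.00166). Both had lower values in all BAR than in all BMF libraries. Kif14, which acts in the midbody (log2 -0.61), Kif11, which pushes the spindle poles apart (-0.61), Kif18b (-0.46), Kif20b (-0.40), Kif2c, which shortens spindle fibres (-0.38), and the spindle assembly factor Tpx2 (-0.32) also fell. Kif15, Kif20a and Kif22 did not pass (log2 -0.17, -0.23 and -0.24). Exons of Kif4 overlap Pdzd11 on the other strand over 832 bases, and whether counting used strand is not given in the sources used here, so the Kif4 value is uncertain to that extent; its pseudogene copy Kif4-ps has an entry of its own in the table and could hold some of its reads.

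Ncapd2 and Ncaph fell among the 5 condensin genes, whose median was -0.32 under TMM and 0.09 under the T cell scaling. Ncapd2, a regulatory subunit of condensin I, stood at 112, 101 and 113 CPM in BAR, against 155, 176 and 172 CPM in BMF (log2 -0.63, SE 0.11, adjusted p = 0.000618). Ncaph, which closes the condensin ring, had a log2 value of -0.32 (adjusted p = 0.0447). The core genes Smc2 (log2 -0.28) and Smc4 (-0.16), shared with condensin II, and Ncapg (-0.36, adjusted p = 0.0553) did not pass the test.

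Of the passenger complex, which corrects wrong attachments and then moves to the midzone, Incenp (log2 -0.47, adjusted p = 0.00376) and Birc5 fell; the median of the 3 genes was -0.45 under TMM and -0.04 under the T cell scaling. Birc5, survivin, stood at 148, 145 and 147 CPM in BAR, against 193, 210.3 and 199.7 CPM in BMF (log2 -0.45, SE 0.0933, adjusted p = 0.00207). The third subunit, Cdca8 or borealin, averaged 159 ± 23.4 CPM in BAR and 162 ± 6.45 CPM in BMF (log2 -0.03, adjusted p = 0.881).

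Racgap1, Ect2 and Prc1 fell among the 4 cytokinesis genes, whose median was -0.41 under TMM and 0.00 under the T cell scaling. Racgap1 (chr15:99620496-99651656), the partner of Kif23 in centralspindlin, stood at 119, 116 and 120.1 CPM in BAR, against 188, 185 and 158 CPM in BMF (log2 -0.58, SE 0.0921, adjusted p = 0.000295). Ect2, the activator of RhoA that centralspindlin brings to the cell's equator, had a log2 value of -0.43 (adjusted p = 0.0283), and Prc1, which bundles midzone fibres, one of -0.38 (adjusted p = 0.0158). Anln, anillin, the scaffold of the contractile ring, went against its group with 27.1, 24.6 and 25.7 CPM in BAR, against 19.2, 21.3 and 22.3 CPM in BMF. Its BAR libraries all lay above its BMF libraries, and it did not pass the test under TMM (log2 0.30, SE 0.145, adjusted p = 0.135).

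**Figure D3:**
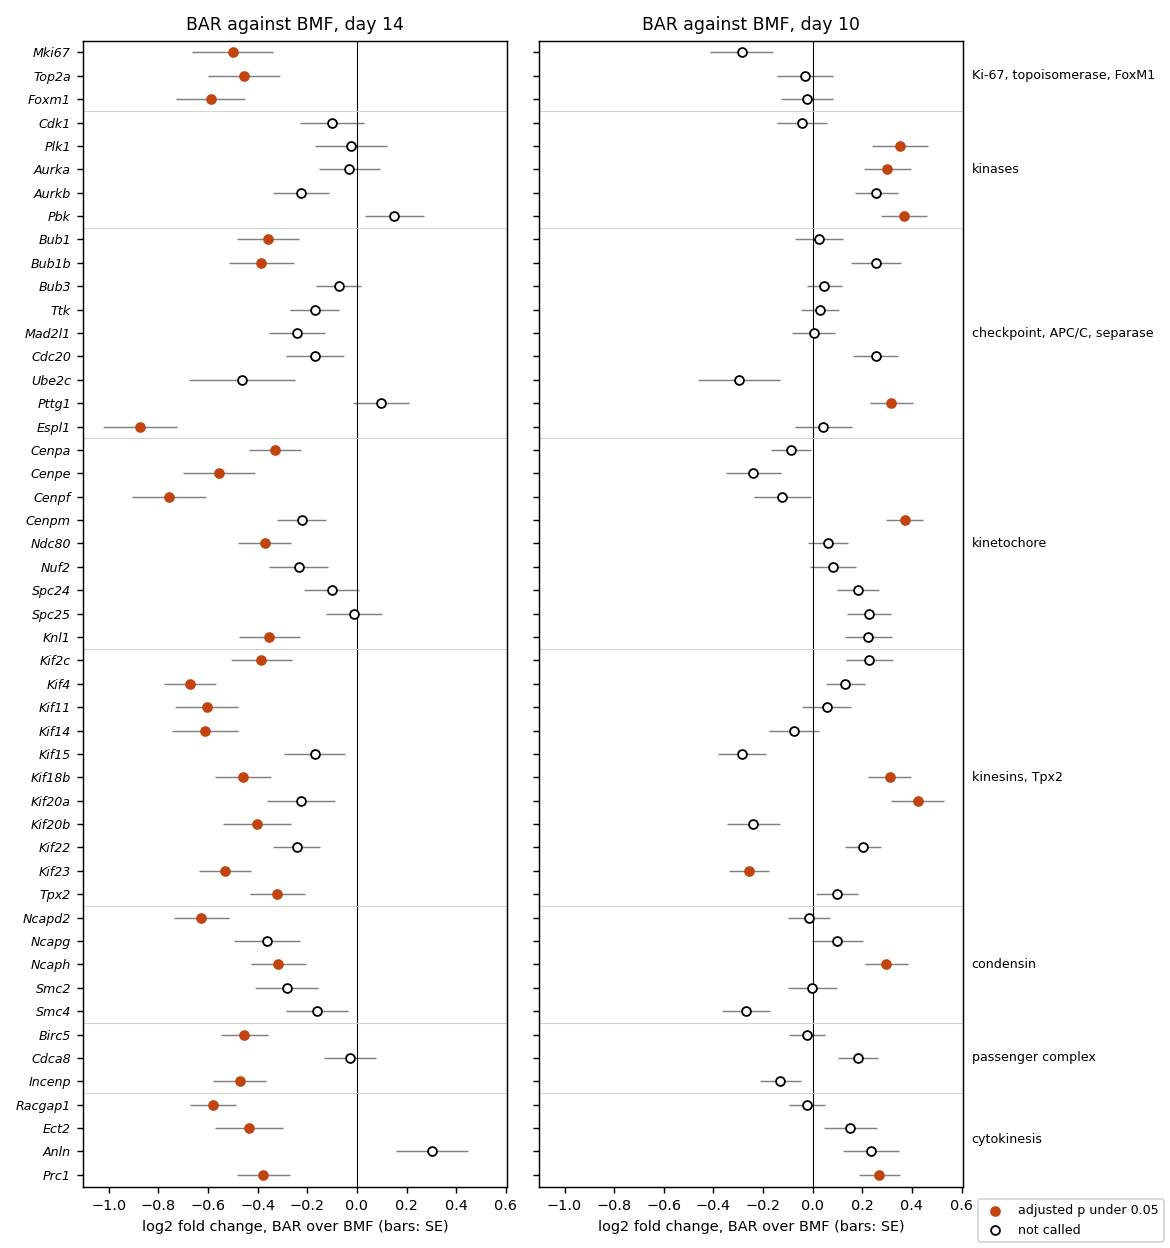
Log2 fold change of each of the 49 genes, BAR over BMF, at day 14 (left) and day 10 (right), grouped by role, with SE bars and filled points where the adjusted p is under 0.05, under TMM scaling. At day 14, 26 genes are lower and 0 higher (0 lower and 7 higher when scaled to T cell genes, where 38.5% of all genes are higher), and at day 10, 1 is lower and 9 are higher (0 lower and 4 higher when so scaled).

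At day 10, where 5 BAR were compared with 5 BMF libraries, the kinases Plk1, Aurka and Pbk and 6 other mitosis genes were higher in BAR. The summed level of the 49 genes was 8385, 7189.7, 7890.1, 8829.5 and 7549.6 CPM in BAR, against 7179, 7213, 8175, 9177 and 7669 CPM in BMF, and the ranges overlapped. Of the 49 genes, 9 rose, where 6.49% of all genes tested rose, and Kif23 alone fell, where 7.94% of all genes fell. The median log2 fold change was 0.06, against 0.00 for all genes, with 31 positive and 18 negative. BAR libraries lay wholly above BMF in 3 genes (3.8% of all genes) and wholly below in 1 (4.11% of all genes). The 9 genes were the kinases Plk1, Aurka and Pbk, the securin gene Pttg1, the kinetochore gene Cenpm, the kinesin genes Kif18b and Kif20a, the condensin gene Ncaph and the midzone gene Prc1.

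Pbk stood at 83.5, 65.4, 87.3, 85.1 and 74.4 CPM in BAR, against 53.8, 50.9, 64.2, 70.6 and 67.2 CPM in BMF, with overlap (log2 0.37, SE 0.0927, adjusted p = 0.0157). Plk1 averaged 166 ± 15.1 CPM in BAR and 130.2 ± 23.8 CPM in BMF (log2 0.35, adjusted p = 0.0431), and Aurka 119 ± 14.8 CPM in BAR and 96.3 ± 13.2 CPM in BMF (log2 0.30, adjusted p = 0.0427; SD, n = 5 each). These kinases rose while Cdk1, at 196, 143, 172, 202 and 175 CPM in BAR, against 161, 160.1, 205, 219 and 169 CPM in BMF, did not pass the test (log2 -0.04, SE 0.1, adjusted p = 0.807). The general markers did not pass either. Mki67 stood at 531, 518, 563, 586 and 500.2 CPM in BAR, against 613, 589, 713, 870.0 and 506 CPM in BMF (log2 -0.29, SE 0.127, adjusted p = 0.139). Top2a stood at 612, 504, 616, 679.5 and 547 CPM in BAR, against 520.5, 543, 656, 750.0 and 553 CPM in BMF (log2 -0.03, SE 0.112, adjusted p = 0.878). Foxm1 stood at 48.4, 40.6, 57.5, 53.4 and 45.3 CPM in BAR, against 46.4, 42.1, 55.2, 57.8 and 47.6 CPM in BMF (log2 -0.02, SE 0.105, adjusted p = 0.91). In all 3 markers the arms overlapped.

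Cenpm, a subunit of the inner kinetochore, had the smallest adjusted p of the 49 at day 10. It stood at 34.8, 31.9, 36.5, 33.4 and 32.9 CPM in BAR, against 23.6, 25.3, 23.6, 29.1 and 29.5 CPM in BMF, with no overlap (log2 0.37, SE 0.0754, adjusted p = 0.00481). Pttg1 stood at 209, 192, 168, 200.1 and 194 CPM in BAR, against 154, 165, 136, 157 and 162 CPM in BMF, again with no overlap (log2 0.32, SE 0.0871, adjusted p = 0.0235). The kinesin gene Kif18b, whose product shortens the fibres that reach the cell cortex, stood at 71.1, 66.3, 75.7, 79.5 and 66.1 CPM in BAR, against 51.0, 52.4, 56.3, 64.1 and 65.5 CPM in BMF (log2 0.31, SE 0.0864, adjusted p = 0.0249). All 3 genes thus had every BAR library above every BMF library, Kif18b by a narrow gap. Kif20a (chr18:34624613-34633277), the midzone kinesin that carries the passenger complex, stood at 156, 140.4, 147, 166 and 141 CPM in BAR, against 98.6, 98.5, 95.4, 114 and 154 CPM in BMF (log2 0.42, SE 0.106, adjusted p = 0.0152). BMF replicate 5 alone lay within the BAR range. Exons of Kif20a overlap Cdc23 on the other strand over 1271 bases, so its value is uncertain to that extent.

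Ncaph stood at 165, 139, 158, 171 and 139.8 CPM in BAR, against 113, 114, 117, 133 and 152 CPM in BMF (log2 0.30, SE 0.0861, adjusted p = 0.0292). Prc1 stood at 250.3, 216, 247, 275 and 229 CPM in BAR, against 183, 174, 195, 229 and 229 CPM in BMF (log2 0.27, SE 0.0828, adjusted p = 0.0372). In both genes the highest BMF values reached the lowest BAR values. Kif23 went the other way, with 67.8, 61.5, 71.5, 71.7 and 65.9 CPM in BAR, against 77.0, 72.9, 87.7, 93.2 and 73.4 CPM in BMF, and no overlap (log2 -0.26, SE 0.0817, adjusted p = 0.0431). Birc5, of the passenger group in which no gene passed, stood at 302, 259.9, 249, 306 and 278 CPM in BAR, against 263, 266, 288, 322 and 279 CPM in BMF (log2 -0.02, SE 0.072, adjusted p = 0.855).

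The day 10 calls rested on few libraries. Transcripts of other cells also differed there: 14 B and plasma cell genes summed to 44.3 to 543 CPM in BAR (all 14 detected) and 15.9 to 32.8 CPM in BMF (12 to 14 detected), with no overlap, and 13 dendritic cell genes to 536 to 2383 CPM in BAR and 401 to 716 CPM in BMF. BAR replicate 3 held the highest of both sums and the lowest T cell identity sum, 5579 CPM, and without it 7 members rose and 0 fell. The part of these cells in the day 10 values was not tested. When scaled to the T cell list, 4 members rose, where 2.89% of all genes did, and 0 fell, where 2.27% did. With Rn45s as a covariate, or without the 3 BMF libraries richest in Rn45s, 0 members rose and 0 fell, and the part of this RNA in the day 10 values was not tested further. The count of genes that rose was 3 without BMF replicate 3, 4 without BMF replicate 1, BMF replicate 2, BAR replicate 1 or BAR replicate 4, and 15 without BMF replicate 5, while Pbk, Cenpm and Kif20a were called whichever library was left out. Kif23 was not called when any 1 of the 5 BAR libraries, or BMF replicate 1, 3 or 4, was left out, nor with limma voom or with no filter on low counts.

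**Figure D4:**
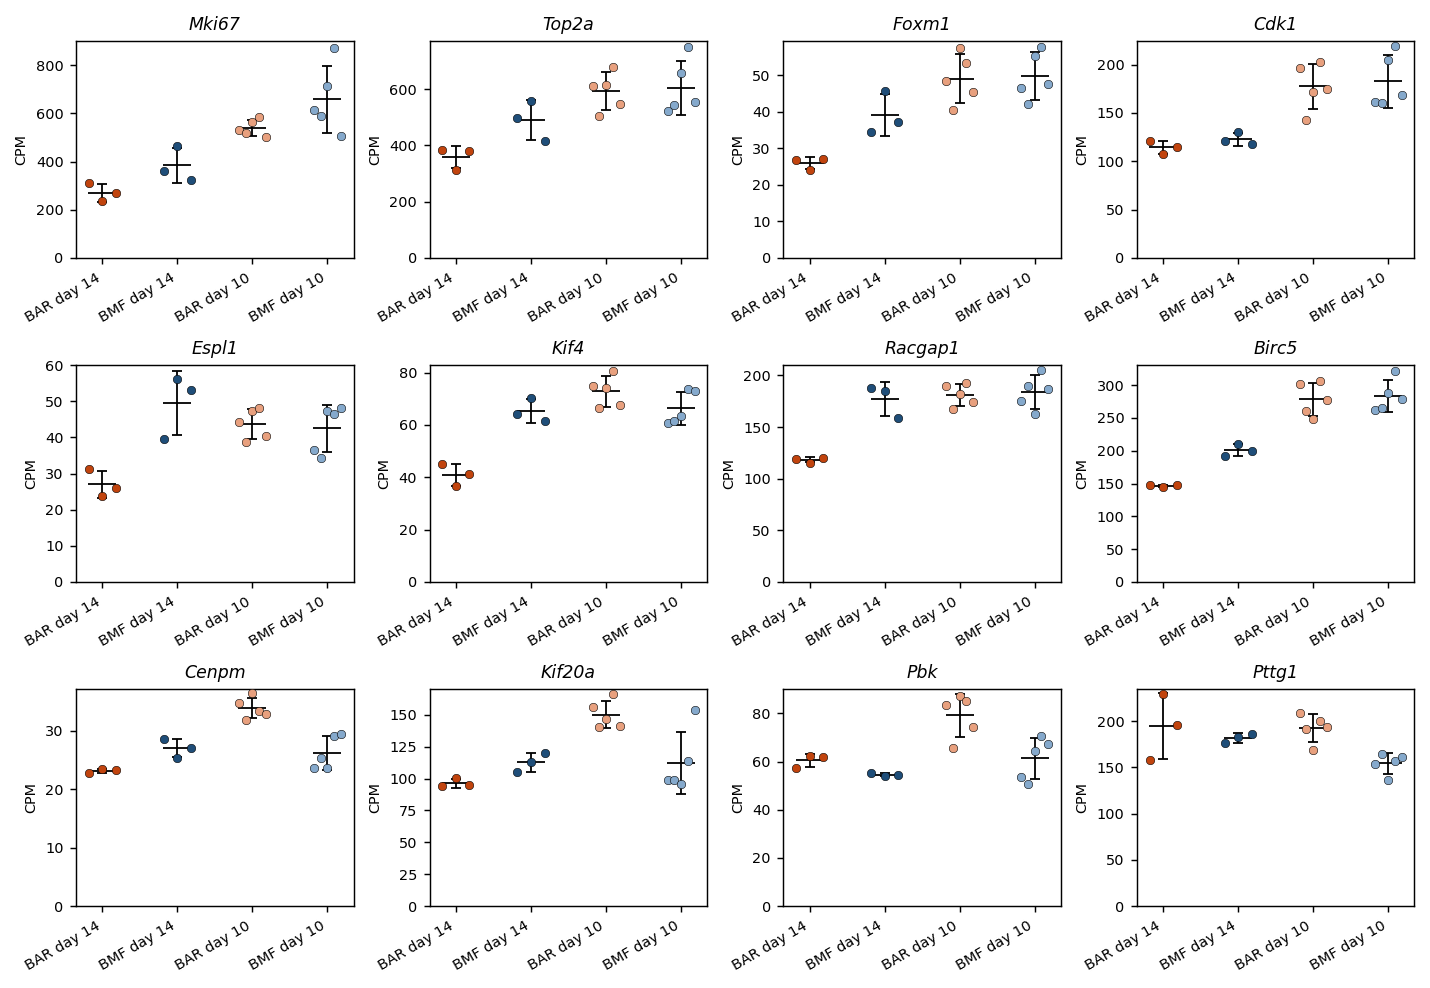
CPM of 12 mitosis genes in every library, by group; points are libraries, lines are means and bars are SD (n = 3 at day 14, n = 5 at day 10). In Mki67, Top2a, Foxm1, Espl1, Kif4, Racgap1, Birc5 and, by a narrow gap, Cenpm, BAR day 14 lies below the other 3 groups under TMM scaling. Cenpm, Kif20a, Pbk and Pttg1 have their highest day 10 means in BAR.

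Whether the BAR difference itself changed between days was tested as an interaction, the BAR over BMF fold change at day 14 minus that at day 10. It was more negative at day 14 in 21 of the 49 genes, where 5.33% of all genes were, and more positive in none, where 5% were (0 at an unadjusted p under 0.05 by edgeR, and 0 called by DESeq2 and by limma voom). The median of the interaction was -0.42 for the members and 0.02 for all genes. Under the T cell scaling 0 members passed in either direction, where 13.9% of all genes were more positive and 0.814% more negative (2 positive and 3 negative at an unadjusted p under 0.05), with a member median of -0.06 where the all-gene median was 0.37. By role, the called genes were 7 of 11 kinesin, 4 of 9 kinetochore, 3 of 4 cytokinesis, 2 of 5 condensin, 2 of 9 checkpoint, 1 of 5 kinase, 1 of 3 passenger and 1 of 3 general marker genes; the medians of the kinase, checkpoint, kinetochore and passenger groups turned positive under the T cell scaling (0.03, 0.12, 0.04 and 0.02).

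Espl1 had the largest change, -0.92 (SE 0.189, adjusted p = 0.00603). At day 10 it had stood at 44.3, 38.6, 47.4, 48.2 and 40.5 CPM in BAR, against 36.4, 34.4, 47.2, 46.4 and 48.0 CPM in BMF (log2 0.04), so that the arms overlapped there and not at day 14. Kif4 changed by -0.80 (SE 0.131, adjusted p = 0.00138), and its day 10 values were 74.8, 66.7, 74.3, 80.8 and 67.4 CPM in BAR, against 60.6, 61.6, 63.3, 73.6 and 73.0 CPM in BMF. Kif18b, higher in BAR at day 10, was lower at day 14 with 35.9, 39.4 and 41.9 CPM in BAR, against 47.6, 59.3 and 54.3 CPM in BMF (interaction -0.77, SE 0.142, adjusted p = 0.00306). It was called in opposite directions at the 2 days under TMM, as were Ncaph (interaction -0.61, adjusted p = 0.0117) and Prc1 (-0.65, adjusted p = 0.00661).

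Cenpm, also higher in BAR at day 10, stood at 22.8, 23.5 and 23.3 CPM in BAR and 28.6, 25.4 and 27.1 CPM in BMF at day 14 (interaction -0.59, SE 0.123, adjusted p = 0.00638). Racgap1 had day 10 values of 189.6, 168, 182, 193 and 174 CPM in BAR, against 175, 190.1, 163, 206 and 187 CPM in BMF (interaction -0.56, SE 0.116, adjusted p = 0.00644). Its day 14 difference thus had no counterpart at day 10, where the arms overlapped. The same held for Ncapd2, with 188, 160.2, 166, 195 and 169.8 CPM in BAR and 155, 156, 184, 210.1 and 183 CPM in BMF at day 10 (interaction -0.61, SE 0.139, adjusted p = 0.011). The other genes named in this test were Bub1b (-0.64), Knl1, the scaffold that recruits the checkpoint to kinetochores (-0.58), Foxm1 (-0.57), Aurkb (-0.48) and Birc5 (-0.43). Aurkb stood at 70.7, 80.5 and 82.2 CPM in BAR and 87.8, 90.1 and 94.9 CPM in BMF at day 14, and at 139.6, 109, 137, 149.6 and 119 CPM in BAR and 101, 96.6, 108, 119.9 and 122 CPM in BMF at day 10. Knl1 averaged 59.5 ± 6.68 CPM in BAR and 75.9 ± 10.2 CPM in BMF at day 14 (n = 3 each), and 102 ± 9.09 CPM in BAR and 87.7 ± 10.97 CPM in BMF at day 10 (n = 5 each). The count of 21 was 8 without BMF day 14 replicate 2, 12 without BAR day 14 replicate 2 or replicate 3, and 3 without the 3 BMF day 10 libraries richest in Rn45s; with the neutrophil-lineage covariate it was 10.

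From day 10 to day 14 the mitosis genes fell in both arms, and this direction did not turn under any scaling tried. In BAR, 47 of the 49 genes were lower at day 14 than at day 10, where 19.8% of all genes were, and none was higher, where 19.2% were (0 at an unadjusted p under 0.05 by edgeR, and 0 called by DESeq2 and by limma voom). In BMF, 28 were lower, where 20.9% of all genes were, and none higher, where 17.6% were (1 at an unadjusted p under 0.05 by edgeR, Pttg1, and 0 called by DESeq2 and by limma voom). The median was -0.73 in BAR and -0.29 in BMF, against -0.04 and -0.05 for all genes. Under the T cell scaling 46 genes were lower in BAR, where 17.6% of all genes were, and 47 in BMF, where 48.6% of all genes were, and the medians were -0.79 in BAR and -0.70 in BMF, where all genes had medians of -0.09 and -0.46. Under TMM, every day 14 library lay below every day 10 library in 47 genes in BAR (21.2% of all genes) and in 24 genes in BMF (19.6% of all genes), and above in 0 genes in BAR (20.1%) and in 1, Pttg1, in BMF (17.1%). The ratio of the mitosis sum to the T cell sum was 0.703 ± 0.031 in BAR day 14, against 1.18 ± 0.144 in BAR day 10, and 0.656 ± 0.0602 in BMF day 14, against 1.12 ± 0.121 in BMF day 10 (SD, n = 3 at day 14 and n = 5 at day 10).

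In BAR, every gene of the proliferation marker, kinase, kinetochore, kinesin, condensin, passenger and cytokinesis groups was lower at day 14, and so were 7 of the 9 checkpoint genes. Bub3 and Pttg1 were the 2 that did not pass. Birc5, with 148, 145 and 147 CPM at day 14, against 302, 259.9, 249, 306 and 278 CPM at day 10, had the smallest adjusted p (log2 -0.93, SE 0.0861, adjusted p = 1.52e-06). Ndc80 stood at 47.5, 55.8 and 50.7 CPM at day 14, against 108, 94.2, 95.0, 108 and 88.4 CPM at day 10 (log2 -0.94, SE 0.097, adjusted p = 3.36e-06). The largest fold was that of Cenpe, at 0.426 of its day 10 level (log2 -1.23, SE 0.135, adjusted p = 6.2e-06). Mki67 fell by 0.99 on the log2 scale (adjusted p = 0.000111), Top2a by 0.72 (adjusted p = 0.00047), Foxm1 by 0.92 (adjusted p = 3.71e-05) and Cdk1 by 0.63 (adjusted p = 0.000567). Pttg1 had a log2 value of 0.01 (-0.03 under the T cell scaling), with 158, 229 and 196 CPM at day 14, against 209, 192, 168, 200.1 and 194 CPM at day 10.

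In BMF, Cenpe stood at 92.4, 99.97 and 76.9 CPM at day 14, against 157, 157, 200.0, 203 and 128 CPM at day 10, with no overlap (log2 -0.91, SE 0.133, adjusted p = 7e-05). Kif15, a spindle kinesin that backs up Kif11, stood at 73.0, 79.4 and 68.1 CPM at day 14, against 115, 113, 144, 143 and 101 CPM at day 10, again with no overlap (log2 -0.75, SE 0.114, adjusted p = 0.000102). Both belong to the genes whose BAR to BMF difference did not pass the test of change between days. Mki67 (log2 -0.78), Cdk1 (-0.58) and Foxm1 (-0.35) fell in BMF, whereas Top2a did not pass (-0.30, adjusted p = 0.0745). All 3 passenger genes, 6 of 9 kinetochore, 6 of 11 kinesin, 5 of 9 checkpoint, 3 of 5 condensin, 2 of 5 kinase and 1 of 4 cytokinesis genes were lower. Espl1 (log2 0.22), Pttg1 (0.23), Cenpm (0.04) and Kif20a (0.01) were positive without passing; under the T cell scaling all 4 were negative, Cenpm (-0.36) and Kif20a (-0.39) past the test and Espl1 (-0.19) and Pttg1 (-0.17) not. The count of 28 was 18 without BMF day 14 replicate 1. The 2 tests share no libraries, and the difference between the arms' falls is the interaction given above.

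**Figure D5:**
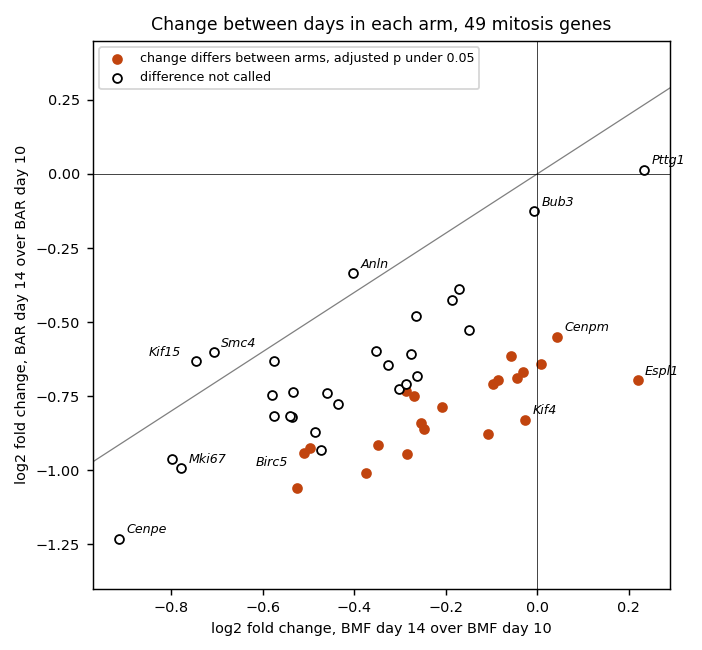
Log2 fold change from day 10 to day 14 of the 49 genes, in BAR (vertical axis) and in BMF (horizontal axis), under TMM scaling; each point is a gene, filled where the interaction has an adjusted p under 0.05, and the diagonal marks equal change. In 46 genes the point lies below the diagonal, with a median of -0.73 in BAR and -0.29 in BMF (-0.79 and -0.70 when scaled to T cell genes).

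Other genes of the cell cycle gave the setting for these values. Of all genes tested at day 14, 12.2% were lower in BAR and 12.9% higher under TMM. Under the T cell scaling 1.27% of all genes were lower and 38.5% higher, the shares beside which the counts below stand. Of 83 further mitosis genes at day 14, 37 were lower in BAR and 1 (Cenpu) was higher under TMM, with a median of -0.28, whereas under the T cell scaling 4 were lower and 13 higher, with a median of 0.13. Cdc25b, the phosphatase that activates Cdk1, averaged 47.7 ± 1.34 CPM in BAR and 87.4 ± 8.89 CPM in BMF (log2 -0.87, adjusted p = 8.01e-05; -0.46 and adjusted p = 0.00865 under the T cell scaling). Ckap5, which makes spindle fibres grow, averaged 118 ± 16.04 CPM in BAR and 198 ± 19.5 CPM in BMF (log2 -0.75, adjusted p = 0.000358; -0.34 and adjusted p = 0.0472 under the T cell scaling). These 2 genes stayed lower in BAR under both scalings. Of 55 genes of DNA replication and S phase entry, 4 were lower (Pole, Dnmt1, Pola1 and Atad2) and 3 higher (Ccne1, Ccne2 and Cdc6) under TMM, with a median of -0.03, and 0 were lower and 32 higher under the T cell scaling, with a median of 0.38 that equals the shift of all genes. Ccne1, cyclin E1, which opens S phase, averaged 65.5 ± 4.81 CPM in BAR and 45.5 ± 3.89 CPM in BMF (log2 0.53, adjusted p = 0.000615). The difference between the lists was not tested. Of 24 genes that brake or switch the cell cycle, 6 were lower and 1, the inhibitor gene Cdkn2d, higher (log2 0.57, adjusted p = 0.0405), against 0 lower and 9 higher under the T cell scaling.

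At day 10, 15 of the 55 replication genes rose in BAR and none fell, 8 of the 83 further mitosis genes rose and 1 fell (Cenph, log2 -0.31), and 3 of the 24 brake genes moved each way. Of all genes, 6.49% rose and 7.94% fell there under TMM. Under the T cell scaling 11 replication genes rose and 0 fell, and 4 further mitosis genes rose and 0 fell. Of the brake genes 1 rose and 3 fell under it, where 2.89% of all genes rose and 2.27% fell. Results with the Rn45s covariate, or without the Rn45s-rich libraries, were read for the members only. How the calls of these lists depend on Rn45s is thus not given. The cyclin-dependent kinase inhibitor gene Cdkn1a averaged 8.62 ± 0.827 CPM in BAR and 16.7 ± 4.37 CPM in BMF (log2 -0.95, SE 0.14, adjusted p = 0.000512), and Cdkn1b 31.9 ± 4.89 CPM in BAR and 58.5 ± 17.7 CPM in BMF (log2 -0.87, adjusted p = 0.0128; SD, n = 5 each). Ccne2, cyclin E2, rose to 47.6 ± 5.15 CPM in BAR, against 31.9 ± 5.50 CPM in BMF (log2 0.58, adjusted p = 0.00226). From day 10 to day 14, 74 of the 83 further mitosis genes and 41 of the 55 replication genes were lower in BAR, where 19.8% of all genes were. In BMF 49 and 27 of them were lower, where 20.9% of all genes were. Under the T cell scaling the counts were 74 and 43 in BAR, where 17.6% of all genes were lower, and 74 and 49 in BMF, where 48.6% were. Between days under TMM, the brake gene Btg1 rose in both arms (log2 0.51 in BAR, adjusted p = 0.00337, and 0.75 in BMF, adjusted p = 0.00015), and the rise in BMF was not called under the T cell scaling (adjusted p = 0.0874).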

How the data were processed

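RNA was measured in 16 libraries of flow-sorted marrow CD8+ T cells, made with the SMART-Seq mRNA LP kit per the labels' protocols. The authors deposited whole-number read counts per gene symbol, not normalised. Per the submitters' processing notes, HISAT2 2.0.5 and the build mm10 were used. How reads were counted, on which annotation and whether by strand is not given in the sources used here. The table's 24421 entries included 27 with dates in place of symbols (0.234% to 0.293% of a library's counts), which were left out; all sample columns were used. The 26 library pairs within groups differed by more than sampling noise (chi-square per degree of freedom of at least 11.2), so each library was counted once. BMF day 10 replicate 5 stood far from its group, at 147 to 347 against the other BMF day 10 libraries. Among themselves those differed by 11.2 to 102.

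Groups followed the treatment labels. Replicate numbers were assigned here within each group, in the order of the sample records, and are not the submitters'. Counts were fitted in R 4.3.3 with edgeR 4.0.16 (filter on low counts by group, TMM, robust quasi-likelihood, 4 group means over 16 libraries, no covariate), and p-values were adjusted by Benjamini-Hochberg over 14862 genes at 0.05. All 49 members passed the filter. The common biological coefficient of variation was 0.198. The SE of a log2 fold change is its absolute value over the root of the F value. The fit was also run on simulated counts in which 200 genes were changed. Each gene was drawn independently from its mean over all libraries. Differences between groups in Rn45s or in other cells were not simulated, so that run does not bear on them. Alternatives were DESeq2 1.42.0, limma voom (limma 3.58.1), DESeq2's size factors, no filter, only the groups compared, Rn45s or the neutrophil-lineage sum as covariate, leaving out the 3 BMF day 10 libraries richest in Rn45s, leaving out each library in turn, and, added after the data were seen, scaling to CD8 T cell identity genes. Gene positions and exon lengths are from GENCODE on GRCm38 (mm10), and promoters from RefSeq GRCm38.p6.

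The members, lists and tests were chosen with earlier results of these data known. Values in every library are given for Mki67, Top2a, Foxm1 and Cdk1, for the called member with the smallest adjusted p in each role of each BAR comparison and of the interaction (2 in the kinetochore, checkpoint and kinesin roles; with none called, the member with the highest mean), and for the 2 smallest in each direction between days; other members are given by mean or fold change. From the other lists, up to 4 called genes in each direction were eligible.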

Additional observations from a re-analysis of the deposited data

Results flagged for a closer look

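The BAR over BMF difference changed between day 10 and day 14 in 21 of the 49 genes by the interaction test of edgeR, all with a lower value at day 14 under TMM, and none of them passed under the T cell scaling. The largest changes in log2 fold change were those of Espl1 (-0.92), Kif4 (-0.80), Kif18b (-0.77), Kif11 (-0.66), Kif20a (-0.65), Prc1 (-0.65), Bub1b (-0.64), Cenpf (-0.64), Kif2c (-0.61), Ncaph (-0.61) and Ncapd2 (-0.61). Smaller ones were those of Cenpm (-0.59), Ect2 (-0.59), Knl1 (-0.58), Foxm1 (-0.57), Racgap1 (-0.56), Kif14 (-0.54), Aurkb (-0.48), Kif22 (-0.45), Ndc80 (-0.43) and Birc5 (-0.43). Adjusted p-values ran from 0.00138 for Kif4 to 0.0459 for Kif14.

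In 2 of 100 groups of 5 day 10 values examined, 1 library stood apart from the other 4 by Dixon's ratio, where chance gives about 1 in 20. Kif14 was at 32.9 CPM in BAR day 10 replicate 4, with the other BAR libraries between 25.9 and 27.2 CPM. Bub3 was at 321 CPM in BMF day 10 replicate 3, with the other BMF libraries between 292 and 298 CPM. Groups of 3 libraries at day 14 were not examined in this way.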

How the results depend on the processing

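No paired analysis was possible because the labels give the libraries no replicate numbers of their own and nothing pairs an animal or culture across groups.

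At day 10 the count of members that rose (9) became 0 with the Rn45s covariate, 0 without the 3 BMF libraries richest in Rn45s, 4 when scaled to T cell genes and 5 with only the 2 groups in the fit; the count that fell (1) became 2 with DESeq2's size factors, 3 with DESeq2, and 0 with no filter, limma voom, either covariate, the T cell scaling or without the Rn45s-rich libraries. At day 14 the count of lower members (26) became 5 with the neutrophil-lineage covariate and 0 when scaled to T cell genes, and that of higher members (0) became 1 without the Rn45s-rich libraries, 1 with only the 2 groups in the fit and 7 under the T cell scaling. The interaction count (21 lower) became 10 with the neutrophil-lineage covariate, 3 without the Rn45s-rich libraries and 0 under the T cell scaling. Between days in BMF, 28 lower became 47 under the T cell scaling, and 0 higher became 1 with only the 2 groups in the fit. The cause of these shifts was not tested.

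Leaving out each library in turn gave 3 to 15 higher and 0 to 6 lower at day 10, 12 to 27 lower at day 14, 8 to 23 lower in the interaction, 18 to 32 lower and 0 to 1 higher between days in BMF, and 45 to 47 lower between days in BAR. Called under every setting other than the T cell scaling were 0 of 10 members at day 10, 5 of 26 at day 14, 3 of 21 in the interaction (Espl1, Kif4 and Kif18b), 18 of 28 between days in BMF and 38 of 47 in BAR.

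Under the T cell scaling 29 members turned positive at day 14, of which 14 were called under one of the scalings, in log2 Aurka (0.37), Bub1 (0.048), Bub1b (0.016), Bub3 (0.34), Cenpa (0.068), Ndc80 (0.037), Spc25 (0.40), Knl1 (0.061), Kif2c (0.025), Kif20b (0.017), Tpx2 (0.087), Ncaph (0.093), Cdca8 (0.38) and Prc1 (0.032), and 4 turned negative between days in BMF, of which Cenpm (-0.36) and Kif20a (-0.39) were called under one. DESeq2's size factors moved a group's mean scale by at most 0.01 in log2. The lowest count of a member in any library was 490 (Kif14), so counting error was small; the 3 libraries per arm at day 14 limit the precision there.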
